A study of Mus musculus with 143 samples.

Results

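RENCA is a mouse renal adenocarcinoma line that grows as a subcutaneous tumour in an immunocompetent host. The 10 libraries compared here are 5 RENCA tumours from mice given muDX400, which is a mouse antibody that blocks PD-1, and 5 from mice given a mouse IgG1 isotype control. They were chosen by their titles and are 10 of the 143 libraries of the series, which covers 11 tumour models. Both groups were injected on days 11 and 15 after implantation into the right lower flank, and the tumours were excised on day 19, 8 days after the first injection. A further 3 untreated RENCA baseline tumours are given as levels only and entered the test of treatment in 1 alternative fit only. The labels class RENCA as a Partial responder to PD-1 antibody, together with CT26, EMT6 and MB49. All libraries come from 1 transplanted line, and the strain, sex and age of the hosts were not given in the sources used here. The p-values within RENCA set the difference of the groups against the spread between these tumours. Those of the comparisons with other models use a spread shared over models.

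PD-1 (gene Pdcd1) is an inhibitory receptor that restrains T cells that meet its ligand PD-L1 (gene Cd274) on tumour or myeloid cells, and blocking it is known to raise interferon-gamma output, cytotoxic genes and antigen presentation in responsive tumours. Interleukin 11 belongs to the interleukin 6 family, whose members act through the shared receptor chain gp130 (Il6st) and the transcription factor STAT3. Its known sources are stromal, epithelial and tumour cells rather than T cells, and its known targets include acute phase genes and matrix genes of fibroblasts. Interleukin 33 acts through ST2, the product of Il1rl1, on mast cells, regulatory T cells and type 2 lymphoid cells. Osteoclasts and osteoclast-like giant cells arise by fusion of macrophages and carry tartrate-resistant acid phosphatase (Acp5).

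Expression is given as deposited FPKM, fragment numbers divided by transcript length and library depth. Differences are between group means of log2(FPKM + 1), muDX400 minus isotype, with their standard error (SE), and understate the change of low genes. A gene passed when its Benjamini-Hochberg adjusted p from limma, a linear model fitted over all genes, was under 0.05. The estimated depth was 16.4 to 20.2 M fragments in the 10 libraries at 8 days and 39.4 to 44.2 M in the baseline libraries. The replicate correlations over genes ran from 0.878 to 0.988. Mitochondrial transcripts took 1.64% to 3.83% of FPKM at 8 days.

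Several markers of the line itself, Pax8, Krt8 and Pax2 among them, differed strongly between the muDX400 libraries. Pax8, a renal lineage transcription factor, measured 0.0476, 1.84, 10.6, 0.278 and 0 FPKM in muDX400 replicates 1 to 5, against 4.23, 3.13, 3.88, 2.19 and 3.67 FPKM in isotype replicates 1 to 5 and 10.4, 8.03 and 8.52 FPKM at baseline. In the 130 libraries of the other models its highest value was 0.277 FPKM, and 0 of them reached 1 FPKM. So muDX400 replicates 1, 4 and 5 held almost none of this marker, replicate 2 held less than any isotype library, and replicate 3 held more than all of them. Krt8, a simple-epithelium keratin, followed the same order at 54.0, 104, 507, 64.1 and 45.5 FPKM with muDX400 and 363, 173, 245, 157 and 194 FPKM with isotype. Pax2, another renal lineage factor, was likewise highest in muDX400 replicate 3, at 2.80 FPKM, and 0 in replicate 5. Lhx1 and Cdh16, named as markers of the line, stayed at or below 0.423 FPKM in all 13 RENCA libraries. Vim, the mesenchymal intermediate filament gene, was between 1656 and 2492 FPKM in all 10 libraries.

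**Figure D1:**
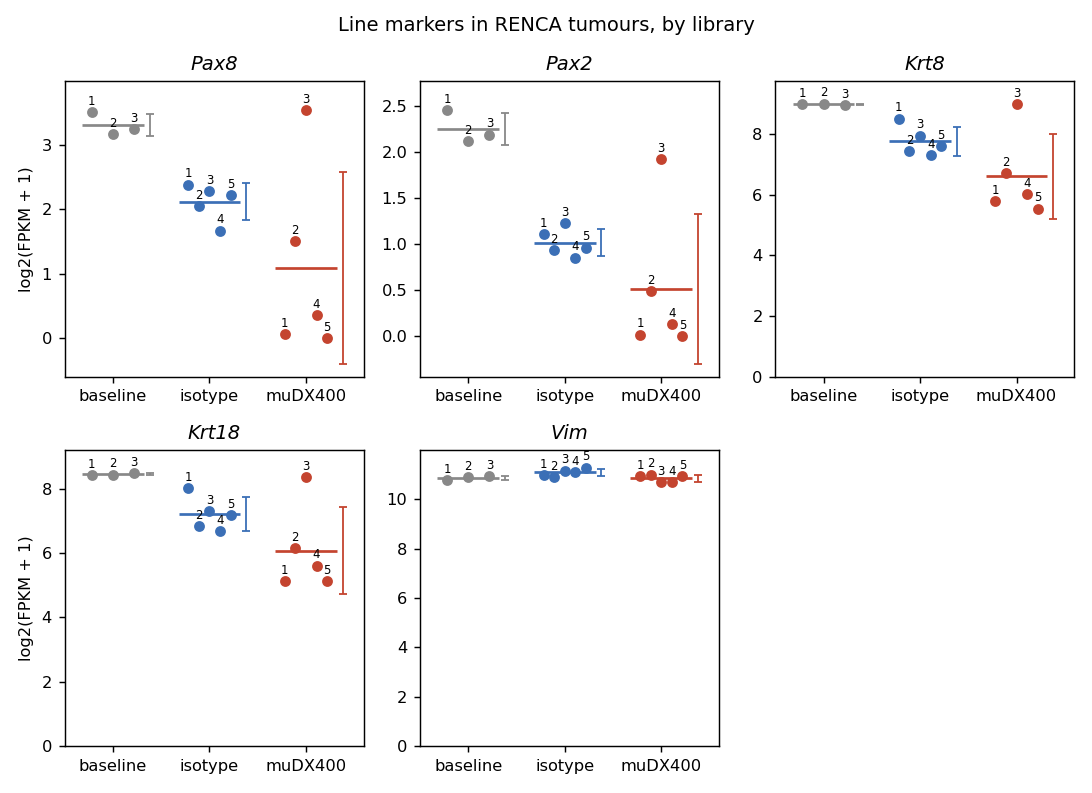
Levels of 5 markers of the RENCA line as log2(FPKM + 1) on the vertical axis, 1 point per library numbered by replicate, for the baseline, isotype and muDX400 groups; lines are means and bars are 1 SD. For Pax8, Pax2, Krt8 and Krt18, muDX400 replicate 3 stands above every isotype library and the other muDX400 libraries stand below, while Vim is level across the groups.

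As a group mean, Pax8 differed by -1.03 ± 0.58 (SE, n = 5 per group, limma adjusted p = 0.46) and Krt8 by -1.15 ± 0.56 (adjusted p = 0.377), and neither passed. With muDX400 replicate 3 left out, Pax8 fell by 1.64 (adjusted p = 0.0104) and Krt8 fell by 1.75 (adjusted p = 0.00587). That library was singled out after its values were seen. Of 18 genes in the list of line markers, 9 had enough signal to be tested and 0 passed in limma (1 at unadjusted p under 0.05). Of the 9 differences 4 were above 0 and 5 below, from -1.15 to 0.70. In 1 of the 9 the groups were apart, higher with muDX400, beside 3.58% of all genes tested. The summed FPKM of the list was 1816 to 2531 with muDX400 and 2220 to 2856 with isotype. This sum rests on the most abundant members and says little about low ones such as Pax8. The mean log2(FPKM + 1) over the list was 1.90, 2.06, 2.69, 2.25 and 1.71 in muDX400 replicates 1 to 5 and 2.16 to 2.43 with isotype. In bulk tissue, fewer cells of a type and less RNA per cell cannot be told apart. The part of this difference between libraries in the results below was not tested, and without muDX400 replicate 3 the line marker list counted 0 higher and 3 lower. For the lists below, counts without that library are given where they differ by over 1.5 times.

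Among the isotype libraries, replicate 2 held B-cell transcripts that the others lacked. Its Ms4a1, encoding the B-cell surface protein CD20, measured 51.7 FPKM against at most 0.233 FPKM in the other 4, and Cd79a, a B-cell receptor component, measured 283 FPKM against at most 1.14 FPKM. Its T-cell genes were also high, with Cd3g at 37.2 FPKM against 2.59 to 8.01 FPKM in the other isotype libraries. Isotype replicate 3 held skeletal muscle transcripts, with Ckm at 201 FPKM, and muDX400 replicate 5 held both muscle and skin transcripts, with Ckm at 25.9 and Krt5 at 22.2 FPKM. The summed FPKM of the B and plasma cell list was 5770 in isotype replicate 2 and at most 551 in the 5 muDX400 libraries. List counts without isotype replicate 2 are given below by the same rule.

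Of 12664 genes tested, 325 passed (2.57%), of which 289 were higher with muDX400 (2.28%) and 36 lower (0.284%). The groups did not overlap for 454 genes that were higher with muDX400 (3.58%) and for 172 that were lower (1.36%). The median difference over all genes was -0.06, with 5249 genes above 0 and 7415 below. For every list count below, the shares over all genes to set beside it are 2.28% higher and 0.284% lower. The count depended on single libraries. It was 95 without muDX400 replicate 1, 103 without replicate 2, 100 without replicate 4 and 758 without replicate 3, and it was 150 without isotype replicate 3 and 100 without isotype replicate 5. With isotype replicate 2 and muDX400 replicate 3 left out together, a choice made after seeing the data, it was 629.

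The largest rise of all genes was that of Il11. It measured 225, 283, 91.5, 228 and 152 FPKM in muDX400 replicates 1 to 5 and 3.77, 5.38, 6.08, 57.9 and 13.1 FPKM in isotype replicates 1 to 5, with 2.99, 1.44 and 3.06 FPKM at baseline. All muDX400 libraries were above all isotype libraries, and the lowest of them, replicate 3, was the library with the most line marker. Isotype replicate 4 stood apart from the other isotype libraries. The difference was 4.03 ± 0.59 (SE, n = 5 per group, limma adjusted p = 0.00822), and it passed with any 1 library left out. Group means were 196 ± 74.5 FPKM (SD) with muDX400 and 17.2 ± 23 FPKM with isotype.

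Promoter windows are printed for the large rises in which a searched motif was found, to show what lies next to the start sites of these genes. The windows run from 250 bases before to 50 bases after a RefSeq start site on GRCm38.p6, 5′ to 3′ on the gene's strand, with motif matches in capitals. They are Il11 start site 2 at chr7:4778092-4778391 (minus strand), Saa3 at chr7:46715627-46715926 (minus strand) and Il1rl1 start site 1 at chr1:40429320-40429619 (plus strand).
Il11: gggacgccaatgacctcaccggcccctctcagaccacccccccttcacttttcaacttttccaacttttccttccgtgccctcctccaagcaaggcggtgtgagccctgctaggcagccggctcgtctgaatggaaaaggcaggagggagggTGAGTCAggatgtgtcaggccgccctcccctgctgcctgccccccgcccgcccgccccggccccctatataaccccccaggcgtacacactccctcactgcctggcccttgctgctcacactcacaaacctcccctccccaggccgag
Saa3: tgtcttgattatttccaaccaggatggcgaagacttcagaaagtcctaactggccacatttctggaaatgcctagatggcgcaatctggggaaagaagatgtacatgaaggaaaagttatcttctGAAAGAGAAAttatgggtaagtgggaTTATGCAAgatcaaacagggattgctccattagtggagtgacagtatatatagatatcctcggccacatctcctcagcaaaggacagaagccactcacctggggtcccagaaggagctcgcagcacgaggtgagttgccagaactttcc
Il1rl1: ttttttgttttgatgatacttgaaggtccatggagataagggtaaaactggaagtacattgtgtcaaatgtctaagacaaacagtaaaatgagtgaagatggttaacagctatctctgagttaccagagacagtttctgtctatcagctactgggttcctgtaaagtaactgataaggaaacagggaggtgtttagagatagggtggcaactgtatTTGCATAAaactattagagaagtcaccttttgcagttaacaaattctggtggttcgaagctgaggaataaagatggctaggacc

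Both strands were searched for 4 motifs. The STAT motif TTCNNNGAA was in 8.30% of 32851 RefSeq promoter windows of this length and in none of the windows examined for Il11, Reg3g, Saa3 and Il1rl1. The AP-1 motif TGANTCA, present in 7.81% of promoters, matched once in Il11, 98 bases before the start site. The interferon-stimulated response element, present in 3.44%, matched once in Saa3 at 125 bases before the start site. TTGCNNAA, the C/EBP motif, present in 10.8%, matched at 99 bases before the start site in Saa3 and 34 bases before that of Il1rl1. The windows of Reg3g, Il11 start site 1 and Il1rl1 start site 2 held no match, and a match is only a run of letters.

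Other ligands of the family moved less. Lif, leukaemia inhibitory factor, measured 43.5, 48.7, 33.7, 51.4 and 39.4 FPKM with muDX400 and 12.1, 10.8, 12.7, 19.4 and 13.8 FPKM with isotype. The groups were well separated and the spread within each was small, and Lif rose by 1.6 ± 0.17 (SE, limma adjusted p = 0.00318), also with any 1 library left out. Osm, oncostatin M, which neutrophils and macrophages make, did not pass (0.78 ± 0.22, adjusted p = 0.09), nor did Il6 itself (1.05 ± 0.47, adjusted p = 0.336). Clcf1 measured 17.6 to 23.2 FPKM with muDX400 and 6.52 to 24.3 FPKM with isotype, where only replicate 2 lay above 11.4. Clcf1 did not pass (0.92 ± 0.29, adjusted p = 0.147), and without isotype replicate 2 it passed (1.21 ± 0.17, adjusted p = 0.0125). Of 8 cytokines of the family 7 were tested, 2 rose, and the median difference was 0.92.

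On the receptor side, Il11ra1, the specific receptor of interleukin 11, measured 31.5, 34.2, 26.1, 32 and 25.1 FPKM with muDX400 and 22.2, 16.9, 18.3, 14.2 and 12.8 FPKM with isotype. No muDX400 library was as low as an isotype library, and Il11ra1 rose by 0.80 ± 0.16 (SE, limma adjusted p = 0.0288). The call held in 4 of 10 fits with 1 library left out and was lost on leaving out muDX400 replicate 1, 2 or 4 or isotype replicate 3, 4 or 5 (adjusted p up to 0.093). Il6st, encoding gp130, differed by 0.72 ± 0.22 (adjusted p = 0.136), and without muDX400 replicate 3 by 0.90 ± 0.18 (adjusted p = 0.0144). Of 6 receptors tested of 7, 1 rose (2 without muDX400 replicate 3), and the median was 0.52.

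**Figure D2:**
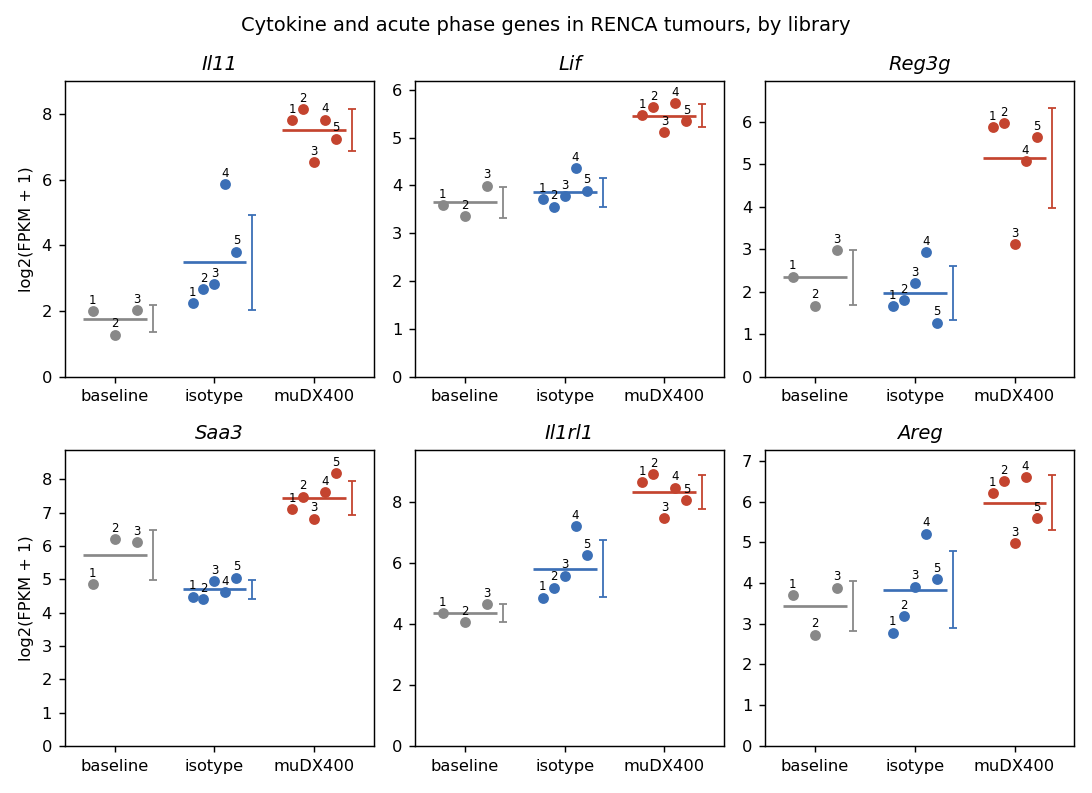
Levels of Il11, Lif, Reg3g, Saa3, Il1rl1 and Areg as log2(FPKM + 1) on the vertical axis, 1 point per library numbered by replicate, in the baseline, isotype and muDX400 groups; lines are means and bars are 1 SD. The muDX400 and isotype groups are apart for all genes but Areg, muDX400 replicate 3 is the lowest muDX400 library in each panel, and isotype replicate 4 is the highest isotype library for Il11, Lif, Reg3g, Il1rl1 and Areg.

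Acute phase genes and genes of STAT3 feedback rose together with the ligands in 9 of 21 tested members of a list of 32, with 0 lower and a median of 0.78. Saa3, serum amyloid A3, measured 137, 178, 112, 195 and 290 FPKM with muDX400 and 21.3, 20.2, 29.7, 23.6 and 32.2 FPKM with isotype. Reg3g, an antibacterial lectin that STAT3 is known to induce in epithelia, measured 58.0, 61.6, 7.74, 32.8 and 49.1 FPKM with muDX400 and 2.16, 2.49, 3.63, 6.67 and 1.42 FPKM with isotype. For both genes every muDX400 library lay above every isotype library, although muDX400 replicate 3 came close to isotype replicate 4 for Reg3g. Saa3 rose by 2.74 ± 0.24 (SE, limma adjusted p = 0.0011) and Reg3g by 3.16 ± 0.51 (adjusted p = 0.00964), and both passed with any 1 library left out. At baseline Saa3 was at 27.9, 72.9 and 68.7 FPKM, between the 2 groups for the latter pair.

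Further members of that list were Lrg1, which acts on endothelium, at 31.4 to 88.8 FPKM against 14.3 to 21.6 FPKM with isotype (1.42 ± 0.24, limma adjusted p = 0.0127). Ptx3, a secreted pattern recognition protein, rose by 1.55 ± 0.27 (adjusted p = 0.0151), but not without muDX400 replicate 1, 2 or 4 (adjusted p up to 0.052). The feedback inhibitor Socs3 rose by 0.67 ± 0.11 (adjusted p = 0.00905), and Cebpb, the transcription factor that drives acute phase genes, by 1.11 ± 0.14 (adjusted p = 0.00404). Without muDX400 replicate 3 the list counted 11 higher and 2 lower.

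In the interleukin 1 and 33 family 4 of 13 tested members rose, of 19 in the list, beside 2.28% of all genes tested. All 13 differences were above 0 with a median of 0.69. Il1rl1, the receptor of interleukin 33, measured 399, 477, 177, 354 and 265 FPKM with muDX400 and 28.1, 35.4, 47.0, 145 and 75.0 FPKM with isotype. Its groups did not overlap, and isotype replicate 4 was again the highest isotype library. Il1rl1 rose by 2.49 ± 0.41 (SE, limma adjusted p = 0.0111), also with any 1 library left out. Its ligand Il33 measured 30.9, 28.3, 11.2, 49.4 and 15.0 FPKM with muDX400 and 4.13, 9.11, 11.4, 15.7 and 10.7 FPKM with isotype, overlapped between groups and did not pass (1.24 ± 0.40, adjusted p = 0.15). Il1b rose by 1.10 ± 0.18 (adjusted p = 0.00941) and Il1rn, its receptor antagonist, by 1.34 ± 0.17 (adjusted p = 0.00404), both also with any 1 library left out. Il1r2, the decoy receptor, rose by 1.12 ± 0.20 (adjusted p = 0.0172), a call lost on leaving out muDX400 replicate 1, 2 or 4 or isotype replicate 3 or 5 (adjusted p up to 0.0593).

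Areg, amphiregulin, an epidermal growth factor receptor ligand of type 2 immunity and repair, measured 72.7, 89.5, 30.6, 95.5 and 47.5 FPKM with muDX400 and 5.87, 8.05, 14.0, 36.1 and 16.1 FPKM with isotype. Only muDX400 replicate 3 and isotype replicate 4 overlapped. Areg rose by 2.14 ± 0.44 (SE, limma adjusted p = 0.0288) and kept the call in 4 of 10 fits with 1 library left out, losing it on leaving out muDX400 replicate 1, 2 or 4 or isotype replicate 2, 3 or 5 (adjusted p up to 0.0913). It was the single member to pass of 13 tested in the list of type 2, eosinophil and mast cell genes, which has 24 members and a median of 0.35. That list counted 2 higher on leaving out muDX400 replicate 3 and 0 on leaving out isotype replicate 2.

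Of 23 tested osteoclast and giant cell genes 4 fell, beside 0.284% of all genes tested, and 11 differences were above 0 and 12 below. Acp5 measured 83.7, 56.7, 91.0, 76.2 and 105 FPKM with muDX400, 658, 378, 179, 112 and 322 FPKM with isotype, and 280, 199 and 201 FPKM at baseline. Every muDX400 library was below every isotype library, but isotype replicate 4, the library with the highest isotype Il11, was close to them. Oscar, an osteoclast costimulatory receptor, measured 0.637, 0.548, 0.648, 0.259 and 0.242 FPKM with muDX400 and 8.09, 4.60, 2.45, 1.63 and 4.95 FPKM with isotype. Acp5 fell by 1.76 ± 0.39 (SE, limma adjusted p = 0.0373) and Oscar by 1.74 ± 0.30 (adjusted p = 0.0131). The Acp5 call held in 3 of 10 fits with 1 library left out and was lost on leaving out muDX400 replicate 1, 2, 4 or 5 or isotype replicate 2, 3 or 5 (adjusted p up to 0.115). The Oscar call held in the 5 fits in which the gene passed the filter on low values, each without a muDX400 library. Only isotype libraries reached 1 FPKM for Oscar. It thus passed the filter on low values through the group in which it was high, and its p-value carries that limit. For the same reason it was not tested on leaving out an isotype library. Whether its call depends on a single isotype library was therefore not examined. With median-ratio scaling Acp5 had an adjusted p of 0.0568.

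Dcstamp, needed for the fusion of osteoclast precursors, measured 2.01, 1.13, 1.44, 1.44 and 1.45 FPKM with muDX400 and 11.1, 6.37, 3.36, 2.54 and 7.41 FPKM with isotype. Mmp9, a gelatinase of osteoclasts and neutrophils, measured 69.3, 35.5, 42.8, 104 and 48.2 FPKM with muDX400 and 690, 226, 187, 99.7 and 337 FPKM with isotype, where replicate 4 overlapped with the muDX400 libraries. Dcstamp fell by 1.39 ± 0.30 (SE, limma adjusted p = 0.0349) and Mmp9 by 2.15 ± 0.45 (adjusted p = 0.0304). Each call held in 4 of 10 fits with 1 library left out. Both were lost on leaving out muDX400 replicate 1, 2 or 5 or isotype replicate 2 or 5, and Dcstamp also without muDX400 replicate 4 and Mmp9 without isotype replicate 3 (adjusted p up to 0.108 and 0.094).

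The list has 25 genes, 0 rose, and its median was -0.14 beside -0.06 for all genes. Slc9b2, a sodium/proton exchanger of osteoclasts that is outside the list, fell by 1.39 ± 0.31 (SE, limma adjusted p = 0.037), a call held in 2 of 10 fits with 1 library left out and lost without any but muDX400 replicate 3 and isotype replicate 4 (adjusted p up to 0.115). The cathepsin Ctsk measured 49.8 to 236 FPKM with muDX400 and 176 to 395 FPKM with isotype and did not pass (-1.21 ± 0.37, limma adjusted p = 0.134). Car2, carbonic anhydrase 2, missed the threshold with groups apart (-1.18 ± 0.28, adjusted p = 0.0518). Nfatc1, the master transcription factor of osteoclasts, did not pass (-0.56 ± 0.18, adjusted p = 0.162), nor did Tnfrsf11a, encoding RANK (0.10 ± 0.17, adjusted p = 0.869). Tnfsf11, encoding the osteoclast differentiation factor RANKL, was at 20.2, 17.9, 4.25, 31.9 and 9.12 FPKM with muDX400 and 1.89, 4.96, 4.44, 10.3 and 6.33 FPKM with isotype, overlapping and not past the threshold (1.30 ± 0.48, adjusted p = 0.222). Without isotype replicate 2 the list counted 0 higher and 0 lower, and without muDX400 replicate 3 it counted 2 higher and 7 lower.

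**Figure D3:**
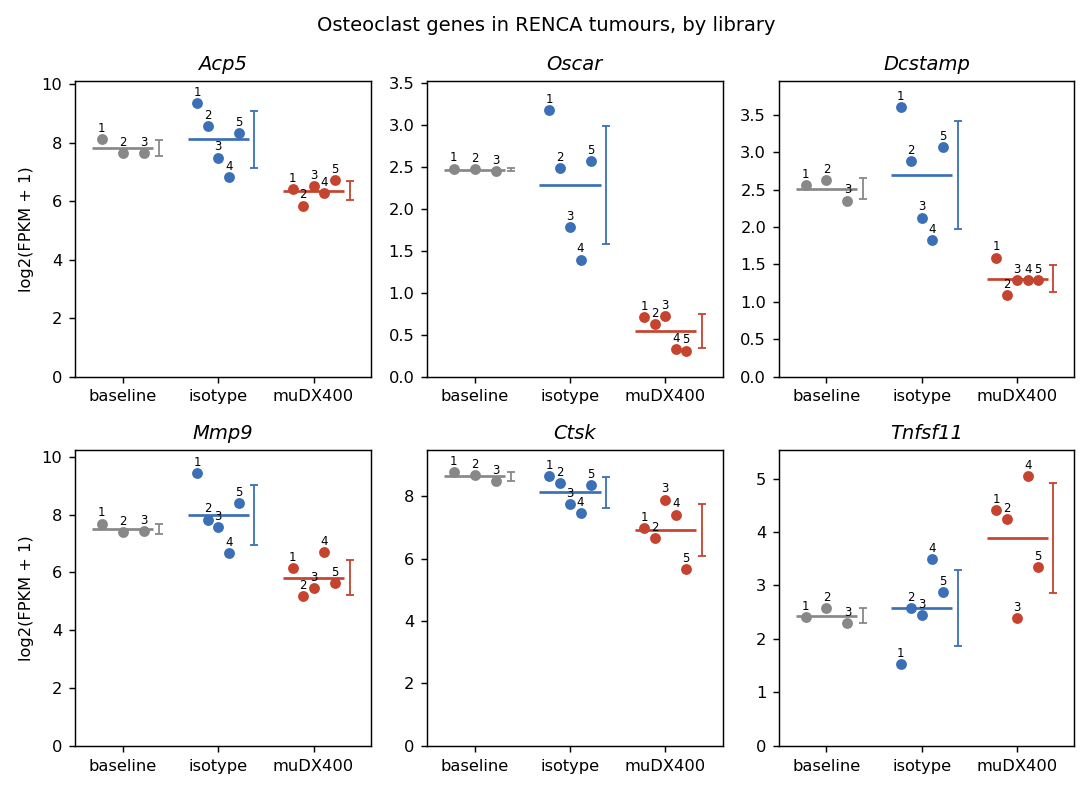
Levels of Acp5, Oscar, Dcstamp, Mmp9, Ctsk and Tnfsf11 as log2(FPKM + 1) on the vertical axis, 1 point per library numbered by replicate, in the baseline, isotype and muDX400 groups; lines are means and bars are 1 SD. For Acp5, Oscar and Dcstamp all muDX400 libraries are below all isotype libraries, the lowest of which is replicate 4.

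Neutrophil genes formed the list with the highest median, 1.14 over 22 tested of 30, with 11 higher and 1 lower, the latter being Mmp9. Csf3r, the receptor of granulocyte colony-stimulating factor and a defining marker of these cells, measured 30.0, 27.9, 37.9, 39.4 and 34.2 FPKM with muDX400 and 11.2, 8.73, 11.6, 10.05 and 7.57 FPKM with isotype. The groups were far apart with little spread, and Csf3r rose by 1.69 ± 0.15 (SE, limma adjusted p = 0.0011). Clec4d, a lectin receptor of neutrophils and monocytes, was at 18.8 to 50.0 FPKM against 6.18 to 11.2 FPKM and rose by 2.03 ± 0.26 (adjusted p = 0.0043), also with any 1 library left out. S100a8 and S100a9 encode the subunits of calprotectin. S100a8 rose by 1.98 ± 0.45 (adjusted p = 0.04), held in 2 of 10 fits with 1 library left out and was lost without any muDX400 library but replicate 3 and any isotype library but replicate 4 (adjusted p up to 0.114), while S100a9 did not pass (1.99 ± 0.59, adjusted p = 0.118).

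Of the chemokines that attract neutrophils through CXCR2, Cxcl3 rose by 2.18 ± 0.42 (SE, limma adjusted p = 0.0227), a call lost on leaving out muDX400 replicate 1, 2 or 4 or isotype replicate 3 or 5 (adjusted p up to 0.0642). Cxcl5 measured 43.5, 32.9, 8.64, 72.5 and 31.8 FPKM with muDX400 and 5.44, 10.4, 5.75, 20.5 and 6.69 FPKM with isotype, and did not pass (1.75 ± 0.49, adjusted p = 0.0964). Replicate 3 was the lowest muDX400 library and replicate 4 the highest isotype library for Cxcl5 too. Cxcr2 itself missed the threshold (1.58 ± 0.38, adjusted p = 0.0509), and Csf3, the growth factor of neutrophils, measured 0.875 to 4.11 FPKM with muDX400 and 0.709 to 3.89 FPKM with isotype (0.35 ± 0.33, adjusted p = 0.719). The neutrophil list counted 13 higher and 2 lower without muDX400 replicate 3, and 9 higher and 0 lower without isotype replicate 2.

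Of 25 macrophage and monocyte genes, all tested, 3 rose and 1 fell, with a median of 0.56. The pan-macrophage genes Cd68 (0.17 ± 0.31, limma adjusted p = 0.882), Adgre1 (0.36 ± 0.26, adjusted p = 0.601) and Csf1r (0.29 ± 0.25, adjusted p = 0.682) did not pass. Ly6c2, a marker of inflammatory monocytes, was at 67.9 to 99.3 FPKM with muDX400 and 22 to 62 FPKM with isotype and rose by 1.14 ± 0.25 (adjusted p = 0.0361). Cx3cr1, the fractalkine receptor of patrolling monocytes and tissue macrophages, measured 2.18, 1.66, 3.49, 1.69 and 3.80 FPKM with muDX400 and 5.99, 4.35, 11.2, 5.74 and 6.59 FPKM with isotype, and fell by 1.11 ± 0.25 (adjusted p = 0.042). The Ly6c2 and Cx3cr1 calls each held in 3 of 10 fits with 1 library left out. Both were lost on leaving out muDX400 replicate 1, 2 or 4 or isotype replicate 3, 4 or 5, and Ly6c2 also without muDX400 replicate 5 and Cx3cr1 without isotype replicate 1 (adjusted p up to 0.11 and 0.128). The lipopolysaccharide coreceptor gene Cd14 (0.69 ± 0.14, adjusted p = 0.026) rose too, a call lost on leaving out muDX400 replicate 1, 2, 4 or 5 or isotype replicate 4 or 5 (adjusted p up to 0.0761). Arg1, arginase 1, was at 62.4 to 385 FPKM with muDX400 and 26.0 to 94.8 FPKM with isotype and did not pass (1.76 ± 0.49, adjusted p = 0.09).

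T-cell genes did not pass as group means. Cd8a, the CD8 coreceptor, measured 10.1, 10.1, 22.4, 6.14 and 15.2 FPKM with muDX400 and 11.0, 17.5, 6.18, 2.38 and 6.10 FPKM with isotype. Pdcd1, encoding PD-1, measured 6.22, 9.74, 19.5, 6.14 and 19.5 FPKM with muDX400 and 11.5, 9.43, 6.89, 2.38 and 6.69 FPKM with isotype. The groups overlapped widely for both genes, with muDX400 replicate 3 among the highest and isotype replicate 4 the lowest. The differences were 0.62 ± 0.43 for Cd8a (SE, limma adjusted p = 0.586) and 0.62 ± 0.41 for Pdcd1 (adjusted p = 0.549).

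All 17 members of the pan T-cell list were tested, 0 passed in limma (0 also at unadjusted p under 0.05), and all differences were above 0 with a median of 0.44. Isotype replicate 2, the library with B-cell transcripts, had the highest mean of this list among all 10 libraries. Without it the median was 0.86 and 3 members passed, among them the adhesion receptor gene Cd2 (1.24 ± 0.24, adjusted p = 0.0307) and the receptor constant region gene Trbc1 (1.21 ± 0.26, adjusted p = 0.0414). Without it 2 of 8 tested regulatory T-cell genes passed as well, Tnfrsf4, encoding OX40 (1.14 ± 0.17, adjusted p = 0.014), and the lineage factor Foxp3 (0.89 ± 0.20, adjusted p = 0.0478), where 0 of 8 passed with all libraries (4 at unadjusted p under 0.05). These genes are named because they passed in that fit.

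Cytotoxic genes did not move as a group, with 0 of 17 tested members past the limma threshold (4 at unadjusted p under 0.05), 9 differences above 0 and 8 below, and 1 past it without muDX400 replicate 3. Ifng, the effector cytokine, measured 3.86, 6.63, 13.2, 5.69 and 4.92 FPKM with muDX400 and 2.93, 3.12, 2.18, 1.78 and 2.64 FPKM with isotype. Its groups did not overlap, but it missed the threshold (1.06 ± 0.27, limma adjusted p = 0.0619), and without muDX400 replicate 3, its highest library, it passed (0.82 ± 0.19, adjusted p = 0.0291). Gzmb, granzyme B, overlapped between groups (0.54 ± 0.27, adjusted p = 0.392), as did perforin (Prf1, -0.25 ± 0.40, adjusted p = 0.86). Gzmc, a granzyme of strongly activated killer cells, was at 3.07 to 13.2 FPKM with muDX400 and 8.20 to 63.8 FPKM with isotype and did not pass (-1.82 ± 0.50, adjusted p = 0.0875). Granzyme genes are close relatives, and fragments may be shared between them.

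Of 34 tested interferon-gamma response genes 2 rose, beside 2.28% of all genes tested. In limma 17 of the 34 had an unadjusted p under 0.05, beside 1823 of 12664 genes tested. In this list 33 differences were above 0 and the median was 0.52. Gbp4 measured 129, 108, 77.2, 105 and 61.9 FPKM with muDX400 and 27.6, 54.0, 36.3, 46.1 and 60.3 FPKM with isotype, and Gbp2 was at 145 to 204 FPKM against 85.3 to 139 FPKM. Both encode guanylate-binding proteins, and in both the groups were apart by a small margin. Gbp4 rose by 1.09 ± 0.24 (SE, limma adjusted p = 0.037) and Gbp2 by 0.73 ± 0.15 (adjusted p = 0.0257). Gbp4 held in 3 and Gbp2 in 6 of 10 fits with 1 library left out. Both were lost on leaving out muDX400 replicate 1 or 2 or isotype replicate 3, Gbp4 also on leaving out muDX400 replicate 4 or isotype replicate 1, 4 or 5, and Gbp2 without muDX400 replicate 5 (adjusted p up to 0.115 and 0.0866). The chemokines Cxcl9 (0.33 ± 0.27, adjusted p = 0.661) and Cxcl10 (0.10 ± 0.14, adjusted p = 0.846) did not pass.

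None of 15 tested MHC class I presentation genes passed in limma, with a median of 0.17, and none of 10 class II genes, with a median of 0.22 (1 in each list at unadjusted p under 0.05). H2-K1, a classical class I heavy chain, was at 457 to 676 FPKM with muDX400 and 331 to 568 FPKM with isotype (0.18 ± 0.18, limma adjusted p = 0.738). In the type I interferon list 2 of 22 rose (3 at unadjusted p under 0.05 in limma), beside 2.28% of all genes tested, and the list median was 0.27. They were the antiviral genes Oas2 (1.23 ± 0.26, limma adjusted p = 0.0318) and Oasl2 (0.76 ± 0.17, adjusted p = 0.037). Both calls were lost on leaving out muDX400 replicate 1, 2 or 4 or isotype replicate 3 or 5, and that of Oasl2 also without isotype replicate 1 or 2 (adjusted p up to 0.101 and 0.12). The list counted 1 higher on leaving out isotype replicate 2. None of 13 tested dendritic cell genes passed, with a median of 0.30 (1 at unadjusted p under 0.05). Over all genes tested 1823 had an unadjusted p under 0.05.

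Cd274, encoding PD-L1, measured 44.9, 42.9, 54.4, 51.7 and 23.6 FPKM with muDX400 and 13.4, 22, 19.7, 20.3 and 22.3 FPKM with isotype, with 16.7, 30.7 and 26.3 FPKM at baseline. The muDX400 libraries were above the isotype libraries, replicate 5 only just. Cd274 rose by 1.08 ± 0.22 (SE, limma adjusted p = 0.0292). The call was lost on leaving out muDX400 replicate 1, 2 or 4 or isotype replicate 3 or 5 (adjusted p up to 0.0941). Of 19 tested checkpoint genes 3 rose, beside 2.28% of all genes tested, with a median of 0.49. The others were Entpd1, encoding the ATP-cleaving enzyme CD39 (0.88 ± 0.16, limma adjusted p = 0.0192), and Nectin2, a TIGIT ligand (0.80 ± 0.18, adjusted p = 0.037). Entpd1 lost its call on leaving out muDX400 replicate 1 or 4 or isotype replicate 5 (adjusted p up to 0.0578), and Nectin2 without any muDX400 library but replicate 3 and any isotype library but replicate 1 (adjusted p up to 0.111). Nt5e, encoding the adenosine-forming enzyme CD73, did not pass (1.87 ± 0.57, adjusted p = 0.128), and without muDX400 replicate 3 it did (2.27 ± 0.51, adjusted p = 0.0255), as 1 of 5 checkpoint genes that rose in that fit.

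**Figure D4:**
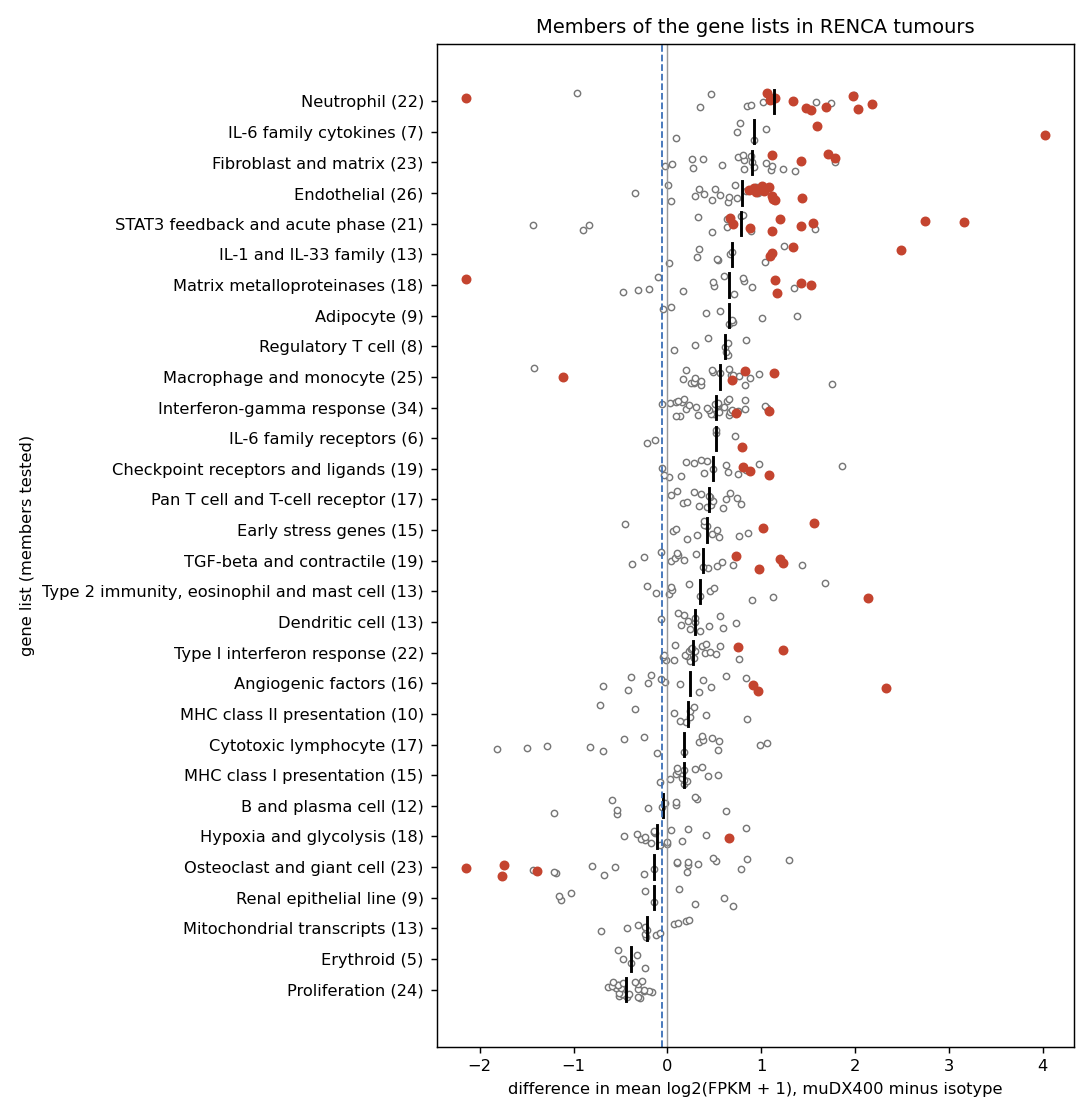
Difference in mean log2(FPKM + 1), muDX400 minus isotype, on the horizontal axis for the tested members of each gene list with at least 5 tested, 1 point per gene; filled red points passed the adjusted p threshold of 0.05, black bars are list medians and the dashed line is the median of all genes tested. Neutrophil, interleukin 6 family, fibroblast and endothelial lists lie to the right, the 4 osteoclast genes that fell lie at the left, and all 24 proliferation genes lie below 0 with none past the threshold.

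Endothelial genes rose in 10 of 26 tested members of 27, with 0 lower and a median of 0.79. Emcn, endomucin of venous and capillary endothelium, measured 13.1, 13.3, 9, 19.1 and 11.2 FPKM with muDX400 and 3.92, 3.02, 5.22, 5.89 and 3.03 FPKM with isotype. Its groups did not overlap and it rose by 1.44 ± 0.23 (SE, limma adjusted p = 0.00901), and Esam, an adhesion molecule of endothelial junctions, rose by 1.12 ± 0.16 (adjusted p = 0.00753). Both calls held with any 1 library left out. Cdh5, encoding VE-cadherin, rose by 1.14 ± 0.21 (adjusted p = 0.0182) but not on leaving out muDX400 replicate 1, 2 or 4 or isotype replicate 5 (adjusted p up to 0.0612), and Pecam1, encoding CD31, missed the threshold (0.84 ± 0.20, adjusted p = 0.0561). At baseline both genes lay above all isotype libraries, at 6.23 to 9.04 FPKM for Emcn and 14.2 to 15.9 FPKM for Esam.

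Aplnr, the apelin receptor of sprouting vessels, measured 14.5, 13.3, 6.92, 21.7 and 9.81 FPKM with muDX400 and 1.30, 0.975, 2.18, 2.99 and 1.32 FPKM with isotype. The groups were apart, and Aplnr rose by 2.33 ± 0.29 (SE, limma adjusted p = 0.00404), also with any 1 library left out. Of 16 tested angiogenic factors and receptors 3 rose and 0 fell (4 and 1 without muDX400 replicate 3), with a median of 0.24. Vegfa, the main vascular growth factor, was at 40.5 to 96.5 FPKM with muDX400 and 22.9 to 46.1 FPKM with isotype and did not pass (0.84 ± 0.23, adjusted p = 0.0886). Cxcl12, a stromal chemokine that binds CXCR4, measured 182, 138, 71.5, 225 and 97.3 FPKM with muDX400 and 18.1, 33.6, 26.9, 32 and 26.0 FPKM with isotype. It rose by 2.26 ± 0.29 (adjusted p = 0.0043), and Cxcl14, a chemokine of fibroblasts and epithelia, by 2.48 ± 0.31 (adjusted p = 0.00404). Both calls held with any 1 library left out, and every muDX400 library was above every isotype library for both.

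Fibroblast and matrix genes had a median of 0.90 over 23 tested, and 4 of them rose. Pi16, a marker of adventitial fibroblasts, measured 123, 92.5, 31.7, 113 and 49.7 FPKM with muDX400 and 38.9, 19.2, 21.3, 21.9 and 9.68 FPKM with isotype. Tnc, the matrix glycoprotein tenascin C, measured 186, 200, 72.5, 202 and 230 FPKM with muDX400 and 49.7, 26.4, 44.2, 111 and 48.2 FPKM with isotype. In both genes muDX400 replicate 3 was the library that overlapped with isotype. Pi16 rose by 1.79 ± 0.41 (SE, limma adjusted p = 0.0404) and Tnc by 1.71 ± 0.38 (adjusted p = 0.0366), as did Mmp2, a gelatinase (1.42 ± 0.29, adjusted p = 0.0292), and Thy1, a surface glycoprotein of fibroblasts and T cells (1.12 ± 0.25, adjusted p = 0.0373). These calls held in 2 or 3 of 10 fits with 1 library left out and were lost on leaving out muDX400 replicate 1, 2, 4 or 5 or isotype replicate 2, 3 or 5, that of Pi16 also without isotype replicate 4 and that of Tnc without isotype replicate 1 (adjusted p up to 0.124). Col1a1, the main fibrillar collagen gene, did not pass (1.36 ± 0.36, adjusted p = 0.0775). With muDX400 replicate 3 left out 14 of the 23 rose, with isotype replicate 2 left out 0 and with both left out 13, and none fell in these fits.

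Of 19 tested genes of the TGF-beta and contractile list 4 rose. Acta2, smooth muscle actin, measured 39.4, 38.2, 37.1, 46.5 and 39.2 FPKM with muDX400 and 29.1, 14.7, 20.3, 19 and 18 FPKM with isotype. No group overlap was seen, and muDX400 replicate 3 lay with the other muDX400 libraries. Acta2 rose by 0.98 ± 0.17 (SE, limma adjusted p = 0.0126), the actin-binding protein gene Tagln by 1.20 ± 0.19 (adjusted p = 0.00884), the myosin light chain gene Myl9 by 1.23 ± 0.21 (adjusted p = 0.0126) and Tgfbi, a matrix protein gene induced by TGF-beta, by 0.73 ± 0.12 (adjusted p = 0.0108). All 4 calls held with any 1 library left out and were the members of the list that rose, with a list median of 0.38. Among 18 tested metalloproteinase genes 4 rose and Mmp9 fell, and 2 rose and 0 fell on leaving out isotype replicate 2. Mmp19 (1.53 ± 0.22, adjusted p = 0.00622) and Adamts4 (1.17 ± 0.19, adjusted p = 0.00905) passed with any 1 library left out.

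Several large rises belonged to none of the lists. Nts, the neuropeptide neurotensin, measured 10.5, 10.6, 5.86, 21.9 and 3.62 FPKM with muDX400 and 0.209, 0.394, 0.972, 1.77 and 1.03 FPKM with isotype. Cck, the peptide hormone cholecystokinin, measured 6.39, 4.99, 4.82, 8.39 and 7.90 FPKM with muDX400 and at most 1.04 FPKM with isotype. Nts rose by 2.47 ± 0.39 (SE, limma adjusted p = 0.00905) and Cck by 2.2 ± 0.21 (adjusted p = 0.00136), and the groups were apart for both. Mfap4, a microfibril protein gene (2.25 ± 0.38, adjusted p = 0.0126), Cpz, a carboxypeptidase gene (2.10 ± 0.35, adjusted p = 0.0124), and Ptpn5, a tyrosine phosphatase gene (2.11 ± 0.32, adjusted p = 0.00822), also passed. These 5 calls held with any 1 library left out. Sfrp1, a secreted Wnt antagonist, rose by 2.47 ± 0.47 (adjusted p = 0.0212), but not on leaving out muDX400 replicate 1, 2 or 4 or isotype replicate 3 or 5 (adjusted p up to 0.0694). Prl2c3 rose by 2.16 ± 0.26 (adjusted p = 0.00404), but near-identical copies of this proliferin gene make its own level uncertain.

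Among the early response genes, Nr4a1, an orphan nuclear receptor induced by many signals, measured 40.4, 46.7, 30.9, 52.1 and 35.9 FPKM with muDX400, 11.0, 19.9, 11.9, 15.5 and 9.14 FPKM with isotype and 6.19, 6.09 and 7.36 FPKM at baseline. The groups were apart and it rose by 1.57 ± 0.21 (SE, limma adjusted p = 0.00553). Ier3 rose by 1.02 ± 0.14 (adjusted p = 0.00622), and these were the 2 members to pass of 15 in that list, both also with any 1 library left out. On leaving out muDX400 replicate 3 the list counted 4 higher. In the hypoxia and glycolysis list 1 of 18 rose (3 at unadjusted p under 0.05 in limma), beside 2.28% of all genes tested. It was Hk2, encoding hexokinase 2 (0.65 ± 0.14, limma adjusted p = 0.0337). Its call was lost on leaving out muDX400 replicate 1, 2 or 4 or isotype replicate 2, 3 or 5 (adjusted p up to 0.102).

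Few genes fell, and among those named by rule besides the osteoclast genes only Fdps passed with any 1 library left out. Fdps, encoding farnesyl diphosphate synthase of the cholesterol pathway, measured 52.5, 83.3, 78.0, 62.5 and 85.7 FPKM with muDX400 and 192, 113, 140, 141 and 153 FPKM with isotype. All muDX400 libraries were below all isotype libraries, and Fdps fell by 1.02 ± 0.17 (SE, limma adjusted p = 0.0131). A list of sterol synthesis genes, written after this value was seen, had 3 of 24 lower, 0 higher and a median of -0.53, with all 24 differences below 0. It counted 5 lower on leaving out muDX400 replicate 3. Sqle, squalene epoxidase (-0.85 ± 0.18, adjusted p = 0.0302), and Acat2, which acts at the entry to the pathway (-0.77 ± 0.16, adjusted p = 0.029), each lost the call on leaving out muDX400 replicate 1 or 4 or isotype replicate 3, 4 or 5, Sqle also without muDX400 replicate 5 and Acat2 without muDX400 replicate 2 (adjusted p up to 0.094 for both). Of the other falls named by rule, Nptx1, Klhdc8a, Col4a5 and Dnph1 measured less in every muDX400 library than in any isotype library, with differences from -1.30 ± 0.26 for Nptx1 (adjusted p = 0.0235) to -1.06 ± 0.22 for Dnph1 (adjusted p = 0.0289). All 4 lost the call without muDX400 replicate 1, 2 or 4. Klhdc8a, Col4a5 and Dnph1 also lost it without isotype replicate 3 or 5 (limma adjusted p up to 0.0948 over all 4 genes). Nptx1 was tested in only 5 of 10 fits with 1 library left out. It fell below the filter on low values whenever an isotype library was left out. Like Oscar, it thus entered the test through the isotype libraries, the group in which it was high.

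Id1 and Id3, inhibitors of DNA binding that bone morphogenetic proteins are known to induce, were also examined after their values were seen. Id1 measured 40.9, 49.0, 33.3, 26.2 and 43.5 FPKM with muDX400 and 85.9, 88.4, 82.7, 54.9 and 62.0 FPKM with isotype and fell by 0.94 ± 0.19 (SE, limma adjusted p = 0.0288). Id3 fell by 1.23 ± 0.27 (adjusted p = 0.037). Id1 lost its call on leaving out muDX400 replicate 1 or 4 or isotype replicate 2, 3 or 5, and Id3 on leaving out muDX400 replicate 1, 2 or 4 or isotype replicate 1, 2, 3 or 5 (adjusted p up to 0.0786 and 0.112). In the proliferation list 0 of 24 genes passed in limma (9 at unadjusted p under 0.05), all 24 differences were below 0 and the median was -0.44. That list counted 2 lower on leaving out muDX400 replicate 3 and 1 lower on leaving out isotype replicate 2. Mki67, a marker of cycling cells, measured 2.29 to 6.80 FPKM with muDX400 and 1.57 to 11.9 FPKM with isotype (-0.53 ± 0.42, adjusted p = 0.646), and Mcm6, a replication helicase subunit gene, missed the threshold with groups apart (-0.59 ± 0.15, adjusted p = 0.0664).

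Whether the effect in RENCA differed from that in other models was tested with 1 linear model for the 110 libraries of the 8-day time point, in which all models share the estimate of each gene's spread. Of 16187 genes, 1594 differed between the effect in RENCA and the mean effect of the other 10 models (9.85%), 776 with a higher difference in RENCA (4.79%) and 818 with a lower (5.05%). The split depended on scaling and was 882 higher and 600 lower with median-ratio scaling and 990 and 664 with quantile normalization. Against the mean of CT26, EMT6 and MB49, the other Partial models, 994 of 14370 genes differed (6.92%), 498 higher (3.47%) and 496 lower (3.45%), and 724 and 441 with quantile normalization. The first count was 990 without muDX400 replicate 4 of RENCA and 2397 without replicate 3. The second was 577 without muDX400 replicate 1, 496 without replicate 4, 2283 without replicate 3 and 1562 without isotype replicate 4.

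Il11 was the gene with the largest such difference among those named. Its effect in the other models lay between -0.30 in CT26 and 0.47 in EMT6, and the RENCA effect exceeded their mean by 3.98 ± 0.27 (SE, limma adjusted p = 1.4e-21) and that of the 3 other Partial models by 3.97 ± 0.43 (adjusted p = 8.37e-07). These errors rest on the spread within all models and are smaller than the error of 0.59 from RENCA alone. Levels in the other models are not given here, and a gene near 0 FPKM in both groups of a model has a difference near 0 there. Reg3g exceeded the mean of the other 10 by 3.06 ± 0.33 (adjusted p = 1.04e-11), with the others between -0.77 and 0.48, and Il1rl1 by 2.30 ± 0.27 (adjusted p = 1.25e-10), with the others between -0.26 and 0.85. Lif exceeded it by 1.63 ± 0.18 (adjusted p = 2.32e-11).

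Areg (2.15 ± 0.28, limma adjusted p = 9.05e-09), Nts (2.41 ± 0.23, adjusted p = 2.01e-14) and Aplnr (2.11 ± 0.33, adjusted p = 7.3e-07) differed from the other 10 models in the same direction. So did Reg1, a regenerating protein gene related to Reg3g (2.44 ± 0.36, adjusted p = 2.36e-07), and Gap43, a growth-associated protein gene of neurons and Schwann cells (2.39 ± 0.20, adjusted p = 3.86e-16). Within RENCA, Reg1 measured 17.4, 22.5, 1.19, 9.11 and 12.9 FPKM with muDX400 and 0.476, 1.42, 1.17, 1.48 and 0.336 FPKM with isotype, so that muDX400 replicate 3 lay within the isotype range. Reg1 passed within RENCA (2.47 ± 0.54, adjusted p = 0.0349) but in only 1 of 10 fits with 1 library left out, the one without muDX400 replicate 3 (adjusted p up to 0.106 in the others).

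Of 24 tested osteoclast genes 11 had a lower effect in RENCA than the mean of the other 10 models and 2 a higher one. Over all genes tested the shares were 5.05% and 4.79%. Acp5 differed by -2.08 ± 0.38 (limma adjusted p = 2.49e-05), with its effect in the other models between -0.34 and 1.10. Mmp9 differed by -2.08 ± 0.40 (limma adjusted p = 7.24e-05) and Oscar by -1.74 ± 0.19 (adjusted p = 5.73e-12). For Oscar the effect in the other models lay between -0.35 and 0.26 and was 0 in CM3. The error of Oscar within RENCA alone was larger, at 0.30. Klk10, a kallikrein-related peptidase gene, differed by -1.53 ± 0.20 (adjusted p = 4.39e-09). Against the 3 other Partial models Acp5 differed by -1.76 ± 0.34 (adjusted p = 0.00136) and Oscar by -1.62 ± 0.24 (adjusted p = 5.78e-05). The 12 genes named by rule for a difference from the other models (8 higher and 4 lower, not Lif or Csf3r) kept their call with any 1 RENCA library left out, in both comparisons. They were chosen for large differences in these data, and these fits share the spread over models. Within RENCA alone, the call held in 1 of 10 such fits for Reg1, 3 for Acp5, 4 for Areg, Mmp9 and Klk10 and 5 for Gap43. It held in all 10 for Il11, Reg3g, Nts, Il1rl1 and Aplnr, and in the 5 that tested Oscar. Beside 4.79% higher and 5.05% lower over all genes, 14 of 27 tested neutrophil genes exceeded the mean effect of the other 10 models and 1 was lower. Of 26 endothelial genes 11 exceeded it with 0 lower. Csf3r exceeded that mean by 1.23 ± 0.28 (adjusted p = 0.00084), but its effect was 1.74 in MC38 against 1.69 in RENCA, and that of Cdh5 was 1.26 in MC38 against 1.14 in RENCA.

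For Saa3, Cd274, Pdcd1 and Cd8a a difference from the other models was not shown. Saa3 exceeded the mean of the other 10 by 1.83 ± 0.68 (SE, limma adjusted p = 0.0749), and its effect reached 2.47 in CT26. Cd274 differed by 0.28 ± 0.42 (adjusted p = 0.795), Pdcd1 by -0.11 ± 0.33 (adjusted p = 0.907) and Cd8a by -0.08 ± 0.37 (adjusted p = 0.945). The effect on Cd8a was 0.62 in RENCA and ran from 0.10 in 4T1 to 2.72 in MC38. In the pan T-cell list 0 of 17 and in the interferon-gamma list 0 of 34 members differed from the other 10 models, beside 9.85% of all genes tested. In lists this short a count of 0 does not show that the effect was alike.

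**Figure D5:**
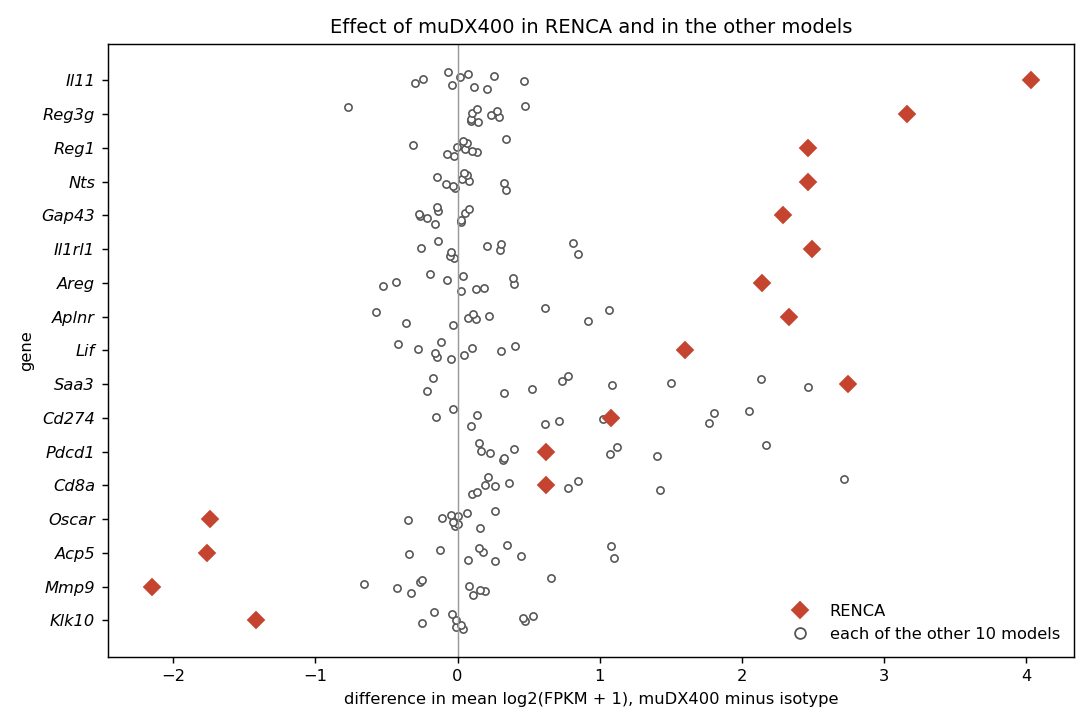
Difference in mean log2(FPKM + 1), muDX400 minus isotype, on the horizontal axis for 17 named genes, with RENCA as red diamonds and each of the other 10 models as open circles. For Il11 the RENCA effect of 4.03 lies beyond the highest other model at 0.47, for Acp5, Mmp9, Oscar and Klk10 it lies below all others, and for Cd274, Pdcd1 and Cd8a it lies within their range.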

How the data were processed

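Total RNA of 143 tumours was sequenced after ribosomal RNA depletion as 50 base paired-end reads, per the labels' protocols. The authors deposited 1 table of FPKM with 54232 identifiers of genes (54079 with a symbol); the aligner, quantifier, annotation and genome build were not given in the sources used here. Library columns were matched by the sample number in the labels' descriptions, and 0 went unused. FPKM are not counts, so genes were tested on log2(FPKM + 1) with limma 3.58.1 in R 4.3.3 (intensity trend, 2-sided, Benjamini-Hochberg over all genes tested, threshold 0.05). Within RENCA the filter asked for 5 or more of 10 libraries at or above 1 FPKM. Differences from other models were contrasts in fits of 110 or 40 libraries at 8 days. Depth was estimated from the smallest steps of low values of 4978 genes with a single transcript.

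The 34 gene lists, the members and the rules were chosen with earlier results of these data known, and 3 further lists after the values were seen. Named genes were Pdcd1, Cd274 and Cd8a; the 15 largest rises and 12 largest falls past the threshold with groups apart, leaving out predicted genes; up to 4 passing members of each list, or up to 2 others where under 2 passed; and the 8 largest positive and 4 largest negative differences from other models among genes past the threshold in RENCA. Other genes in the text are defining markers or list members. On simulated data for 12664 genes the RENCA fit recovered 57 of 100 genes changed by 1 log2 unit and 96 of 100 changed by 2, with 1 false call. The simulated noise was independent between genes and had the same spread in both groups. It held no shifts of whole libraries like those seen here, so these numbers do not give the error rate of the real calls. Alternatives were other pseudocounts, filters, scalings, spread estimates, a replicate block and leaving out each library. Promoter windows came from RefSeq. Results for a few genes are not reported here.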

Additional observations from a re-analysis of the deposited data

Results flagged for a closer look

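In 234 groups of 5 libraries examined (117 genes in each arm), 20 had a highest or lowest library far from the others; chance alone flags about 1 in 20 groups. Most lay in a few libraries. Isotype replicate 2 stood high for Ms4a1 (51.7 FPKM), Cd79a (283 FPKM), Igkc (1922 FPKM) and Tnfrsf4 (12 FPKM) and low for Mcm6 (58.8 FPKM). Isotype replicate 3 stood high for the muscle genes Ckm (201 FPKM) and Mylpf (69.1 FPKM), and muDX400 replicate 5 for Ckm (25.9 FPKM), Mylpf (27.2 FPKM) and the skin keratin gene Krt10 (21.9 FPKM). That library was also the lowest muDX400 library for Cd274 (23.6 FPKM). In muDX400 replicate 3 the line marker Pax2 (2.80 FPKM) and the T-cell gene Cd3g (24.9 FPKM) stood high and Tnc (72.5 FPKM) low. Isotype replicate 1 was low for Cd274 (13.4 FPKM) and Lifr (0.384 FPKM). The rest were Acta2 (46.5 FPKM) and Lpl (46.9 FPKM), high in muDX400 replicate 4, Acat2 (7.30 FPKM), low in muDX400 replicate 1, and Gap43 (3.37 FPKM), high in isotype replicate 4. The part of these libraries in the results was not tested beyond leaving them out.

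In a direct limma test, the effect of muDX400 in RENCA differed from the mean effect of the other 10 models for 1594 of 16187 genes (9.85%). The 12 given here are those named by rule, with the largest differences among genes also past the threshold within RENCA. On the log2 scale the differences were 3.98 for Il11, 3.06 for Reg3g, 2.44 for Reg1, 2.41 for Nts, 2.39 for Gap43, 2.30 for Il1rl1, 2.15 for Areg and 2.11 for Aplnr. They were -2.08 for Acp5, -2.08 for Mmp9, -1.74 for Oscar and -1.53 for Klk10.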

How the results depend on the processing

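The count of 325 genes within RENCA moved with many choices. It was 127 with no filter on low values, 215 with FPKM of at least 5, 3784 with array quality weights, 2310 with a spread shared over 110 libraries, 540 with baseline libraries in the fit, 168 with the replicate block, 629 with isotype replicate 2 and muDX400 replicate 3 left out together, and 95 to 758 with 1 library left out. The count of 1594 against the other 10 models was 3976 with array quality weights and 990 to 2397 with 1 library left out, and that of 994 against the other Partial models was 4631 and 496 to 2283; the weights were tried for these last 2 counts after seeing the data. The cause of these shifts was not tested. The replicate numbers did not pair the samples: the correlations of deviations of same-numbered libraries ran from -0.604 to 0.535, and of the 5 numbers only 4 correlated best with its own. The block ended the call of 23 of 74 named genes within RENCA and gave 1469 and 788 genes in the comparisons with other models. Of those 74 calls, 30 held in every fit with 1 library left out that tested the gene, which for Oscar was 5 of 10 fits. All 12 calls against each set of other models held with any 1 RENCA library left out, in fits that share the spread over models. Of the 74, no filter on low values ended 43, median-ratio scaling 11 and quantile normalization 5, with no change of sign. Changes of sign were seen only for genes that did not pass. Against the other 10 models and 1 library left out, Pdcd1 ran from -0.41 to 0.071 (0.067, 0.071 and 0.064 on leaving out muDX400 replicate 1, muDX400 replicate 4 or isotype replicate 1) and Cd8a from -0.40 to 0.21 (0.13 and 0.06 among them). Against the Partial models Pdcd1 was -0.046 with a pseudocount of 0.1, -0.26 with array weights and -0.24 to 0.24 with 1 library left out (-0.14 among them), and Cd8a -0.17 to 0.45 (-0.06 among them). Within RENCA, array weights gave -0.00323 for Krt10 and 0.016 for Hba-a2, and leaving out 1 library gave -0.13 to 0.68 for Krt10, -0.76 to 0.036 for Krt17 and -1.08 to 0.62 for Mylpf. Depth limits genes near 1 FPKM such as Oscar, which was under that level in every muDX400 library.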
